A study of Homo sapiens with 6 samples.

Results

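Caco-2 cells that carried the hairpin FAM46A-shRNA#4 were compared with Caco-2 cells that carried a scramble hairpin. The comparison uses 4 of the 6 arrays of the study, the 2 titled with shRNA#4 and the 2 titled with scramble shRNA, chosen by title alone. All probe sets with 1 gene symbol were described, 16098 of 48144, and these stood for 14884 genes. The 2 arrays of a different hairpin against the same gene, shRNA#2, show which changes were seen with shRNA#4 and were small or absent with the other hairpin.

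Caco-2 is an established line from a human colon carcinoma whose cells, once confluent, form a polarised sheet resembling absorptive enterocytes. All 3 groups were Caco-2 cells given a lentivirus while still subconfluent and sampled 17 days after infection. The scramble cells thus also carried a virus and a hairpin. The groups were scramble shRNA, FAM46A-shRNA#2 and FAM46A-shRNA#4, each with 2 arrays of total RNA. FAM46A, also named TENT5A, encodes a non-canonical poly(A) polymerase. The level of FAM46A was not analysed here, so how far either hairpin lowered its target is not part of the values below. Each hairpin is a single construct, and no source used here gives the promoter that drives it.

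Stressed mammalian cells draw on a small number of transcription programmes. In the integrated stress response, translational control raises the factor ATF4, which switches on amino acid metabolism, tRNA charging and, as stress persists, ATF3 and DDIT3. Growth factor and stress kinases switch on AP-1, a dimer built from the JUN, FOS and ATF families, within minutes of a stimulus, while NRF2, HSF1, NF-kappa-B, p53, YAP with TEAD, and SRF serve oxidative damage, protein folding, inflammation, DNA damage and mechanical tension. In Caco-2 these programmes run beside enterocyte differentiation, in which HNF4A and CDX2 hold up apolipoproteins, digestive enzymes and the brush border.

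The deposited values were log2 values centred, probe set by probe set, on the median of the 6 arrays, so a value of 0 is the middle of the 6 arrays and the level of a gene was not analysed here. They ran from -2.65 to 3.53 with 0 missing, and the standard deviation of the difference between replicate arrays was between 0.120 and 0.134 in the 3 groups. The ± after a difference is its standard error in a limma fit of all 6 arrays, with n = 2 arrays per group, and a gene was called at a Benjamini-Hochberg adjusted p under 0.05 over all genes. The labels name the arrays biological replicates without saying what separates them, so a p-value here measures the spread between these samples alone. RNA of whole cultures cannot tell fewer cells of a kind apart from less RNA per cell. Because levels are absent, the presence of colonic epithelial markers could not be checked, only their change. Of 15 measured, 6 were lower and 2 higher with shRNA#4 than with scramble, which is 53.3% called beside 26.1% of all genes, with a median of -0.31. KRT20, a keratin of differentiated epithelium, fell by 1.20 ± 0.238 and VIL1, the microvillar protein villin, by 0.74 ± 0.0684, while EPCAM and KRT8 stood at -0.12 and 0.18 and were not called. The 2 became 1 without either scramble array or replicate 2 of shRNA#4, and the 6 became 4 without either shRNA#4 array, which also ended the call of KRT20. With any 1 array left out the median lay between -0.42 and -0.11.

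Against scramble, 3884 of the 14884 genes were called with shRNA#4, which is 26.1% of all. Of these, 2331 were higher (15.7%) and 1553 lower (10.4%). At 2-fold or more the order was the other way round, with 114 genes higher (0.766%) and 165 lower (1.11%). The median change over all genes was 0.004 on the log2 scale. In 8722 genes, 58.6% of all, the shRNA#4 arrays did not overlap the scramble arrays, so a lack of overlap alone distinguishes little. The lower count was 1030 without replicate 1 of shRNA#4, and the higher count was between 1621 and 2100 when any 1 array was left out.

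**Figure D1:**
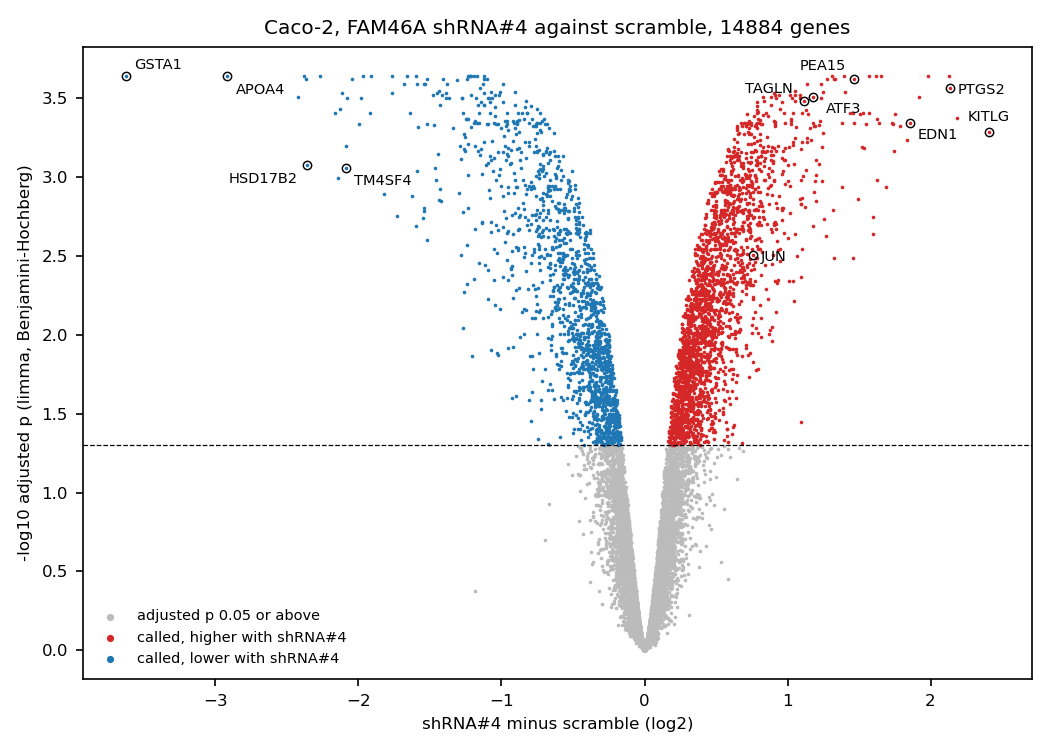
Change of each of the 14884 genes with shRNA#4 against scramble (x axis, log2) and its -log10 adjusted p from limma (y axis), with called genes in colour and the dashed line at an adjusted p of 0.05. Called rises (2331) outnumber called falls (1553), while the longest arm is that of the falls, ending at GSTA1.

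KITLG had the largest rise. This ligand of the receptor KIT stood at 0.17 and -0.14 with shRNA#4 and at -2.65 and -2.14 with scramble, a rise of 2.41 ± 0.176 (5.31-fold). Complement component C5 rose by 2.19 ± 0.141, and the collagen prolyl hydroxylase P3H2 by 2.13 ± 0.0796. In KITLG and C5 the call ended when the variance prior was given a trend, and in these and P3H2 shRNA#2 was also far above scramble. EPHA4, an ephrin receptor (1.92 ± 0.105), MED12L, a Mediator subunit (1.98 ± 0.0853), and the zinc finger gene ZNF614 (1.65 ± 0.0699) rose against scramble and were also higher than with shRNA#2, by 1.10, 0.96 and 1.22. The 15 largest rises had adjusted p-values (limma) between 0.000229 and 0.00116.

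GSTA1 had the largest fall. This alpha class glutathione transferase stood at 0.06 and -0.29 with shRNA#4 and at 3.53 and 3.49 with scramble, a fall of 12.4-fold. APOA4, an apolipoprotein of chylomicrons, stood at 0.03 and -0.03 against 2.74 and 3.09, a fall of 7.56-fold. Neither differed between the hairpins by more than its error, at 0.14 ± 0.156 and 0.07 ± 0.111. GSTA1 and GSTA2 are close paralogs whose probe sets may share signal, so the pair is uncertain as separate values. Of the 15 largest falls, HSD17B2 and TM4SF4 alone were seen with shRNA#4 and not called with shRNA#2.

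Set directly against shRNA#2, shRNA#4 was called for 2272 genes (15.3%), 1284 of them higher (8.63%) and 988 lower (6.64%). These counts rest on 2 arrays against 2 and moved with each of them. They were 438 and 323 without replicate 1 of shRNA#2, 587 and 435 without its replicate 2, 744 and 556 without replicate 1 of shRNA#4, and 607 and 450 without its replicate 2. Called in the same direction against both scramble and shRNA#2 were 843 genes higher (5.66%) and 465 lower (3.12%). Of these, shRNA#2 had moved by less than 0.25 of the shRNA#4 change in 330 genes that were higher (2.22%) and 197 that were lower (1.32%). These genes were selected by the values themselves, and their sizes are given as a description. Their median change against scramble was 0.44 for the genes that were higher, 316 of them protein-coding, and -0.45 for those that were lower, 174 of them protein-coding. Without replicate 1 of shRNA#2 the 330 became 118 and the 197 became 74, without its replicate 2 they became 162 and 89, and without replicate 2 of shRNA#4 they became 189 and 108.

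**Figure D2:**
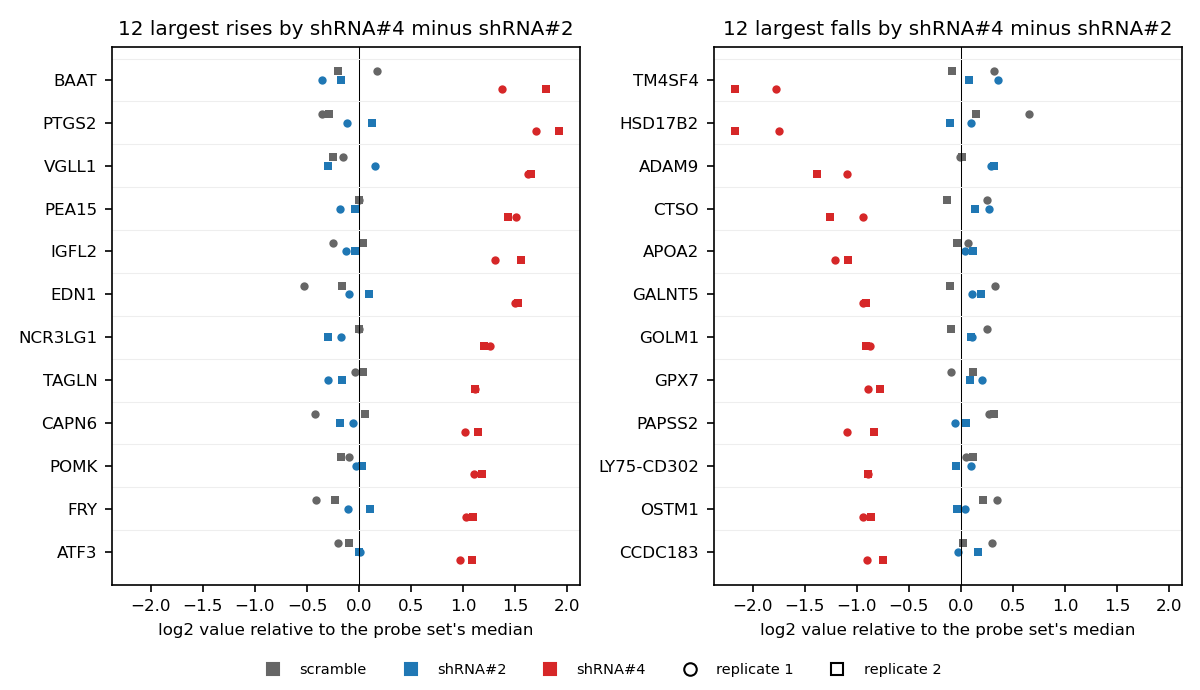
Log2 values relative to each probe set's median (x axis) in the 6 arrays for the 12 genes with the largest rises (left) and the 12 with the largest falls (right, 1 uncharacterised gene left out) by shRNA#4 minus shRNA#2, among genes called against both groups in which shRNA#2 moved by less than 0.25 of the shRNA#4 change. Colour marks the group and shape the replicate. In all 24 genes both shRNA#4 arrays lie outside the range of the other 4 arrays. The genes were selected by these same values, which favours such a gap, so it is a description only.

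Among the 330, the widest gap to shRNA#2 was in BAAT, which joins bile acids to glycine or taurine. BAAT stood at 1.37 and 1.80 with shRNA#4, 0.18 and -0.20 with scramble and -0.36 and -0.18 with shRNA#2, so both shRNA#4 arrays lay above the other 4. PTGS2, the inducible cyclooxygenase that makes prostaglandin precursors, stood at 1.70 and 1.92 with shRNA#4, -0.36 and -0.29 with scramble and -0.12 and 0.12 with shRNA#2. Its rise was 2.13 ± 0.106 against scramble (4.39-fold, limma adjusted p = 0.000272) and 1.81 against shRNA#2 (3.5-fold, limma adjusted p = 0.00154). EDN1, the vasoconstrictor peptide endothelin 1, stood at 1.49 and 1.52 with shRNA#4, -0.53 and -0.16 with scramble and -0.10 and 0.10 with shRNA#2. Its rise against scramble was 1.85 ± 0.127 (3.62-fold). In both genes the shRNA#4 arrays lay above the other 4.

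PEA15, a phosphoprotein that binds ERK and death effector domains, stood at 1.51 and 1.43 with shRNA#4, 0.00 and -0.00 with scramble and -0.18 and -0.04 with shRNA#2. TAGLN, the actin-binding protein transgelin, stood at 1.11 and 1.12 with shRNA#4, -0.04 and 0.04 with scramble and -0.30 and -0.16 with shRNA#2. In each gene the shRNA#4 arrays lay close together and above the other 4. VGLL1, a cofactor of TEAD transcription factors, rose by 1.84 ± 0.140 against scramble and 1.71 against shRNA#2. IGFL2 (1.53 ± 0.121), FRY (1.38 ± 0.0948), POMK, a kinase that modifies dystroglycan (1.28 ± 0.0560), and CAPN6, a calpain-like protein (1.27 ± 0.154), rose against scramble as well and were higher than with shRNA#2 by 1.06 to 1.51. The calls of all 12 genes with the largest rises held, against both groups, when any 1 array was left out.

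Among the 197, TM4SF4, a tetraspan membrane protein, stood at -1.77 and -2.17 with shRNA#4, 0.31 and -0.08 with scramble and 0.36 and 0.08 with shRNA#2. HSD17B2, which oxidises estradiol and testosterone to weaker steroids, stood at -1.75 and -2.17, against 0.66 and 0.14 with scramble and 0.10 and -0.10 with shRNA#2. Both shRNA#4 arrays thus lay well below the other 4, and the falls against scramble came to 4.25-fold and 5.12-fold. ADAM9, a membrane-bound metalloprotease, stood at -1.09 and -1.38 with shRNA#4, -0.01 and 0.01 with scramble and 0.29 and 0.32 with shRNA#2. APOA2, an apolipoprotein of high-density lipoprotein, fell by 1.16 ± 0.0687 against scramble, where shRNA#2 stood at 0.06. Other genes among the 12 largest falls were CTSO, a cysteine protease (-1.16 ± 0.157), GALNT5, which starts mucin-type glycans (-1.03 ± 0.134), GOLM1, a Golgi membrane protein (-0.97 ± 0.109), GPX7 of the peroxidase family (-0.85 ± 0.0884), PAPSS2, which makes the sulfate donor (-1.26 ± 0.0938), and OSTM1, a partner of the lysosomal chloride transporter (-1.18 ± 0.0670). LY75-CD302, a readthrough transcript of neighbouring genes, stood lower by 0.97 ± 0.0650 and shares sequence with both of them, so it is uncertain as a separate value.

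Over 20 lists of stress and signalling genes, 418 genes were measured, and 122 of them (29.2%) were higher with shRNA#4 than with scramble, beside 15.7% of all genes. Lower were 63 (15.1%), beside 10.4% of all. Against shRNA#2, 73 were higher (17.5%), beside 8.63%, and 41 lower (9.81%), beside 6.64%. Among the genes in which shRNA#2 had moved by less than 0.25 of the shRNA#4 change were 20 stress genes that were higher (4.78%, beside 2.22% of all) and 5 that were lower (1.20%, beside 1.32%). The lists were chosen with results of these data known, and these shares are a description. The 20 became 10 without replicate 1 of shRNA#2 and 12 without its replicate 2, and the 73 became 31 and 46. Without replicate 2 of shRNA#4 the 73 became 41 and the 41 became 20, and without replicate 1 of shRNA#4 the 41 became 26, as they became 19 and 23 without replicates 1 and 2 of shRNA#2. The 5 became 3 without replicate 1 of shRNA#2.

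**Figure D3:**
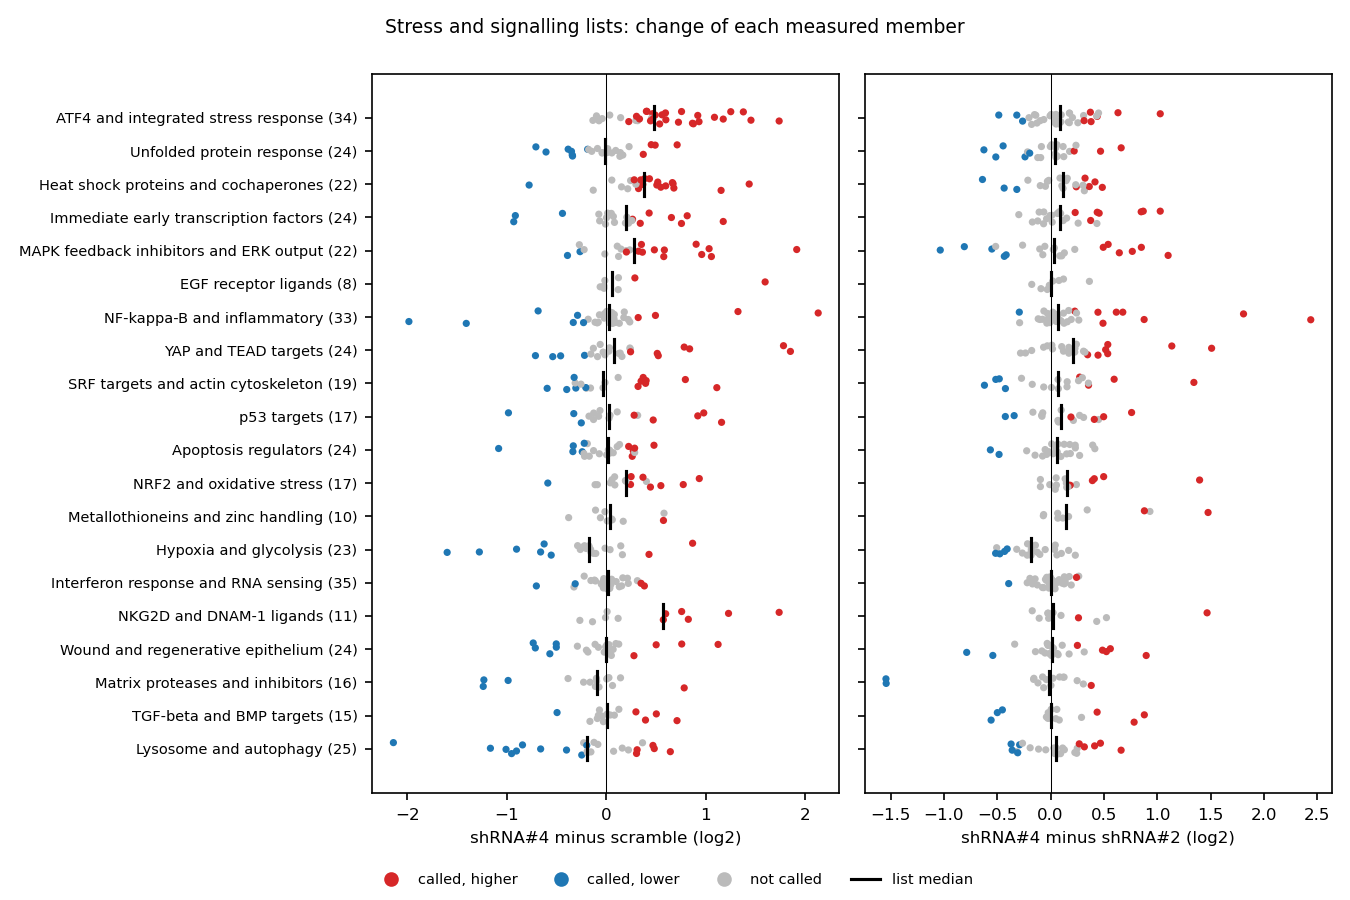
Change of each measured member of 20 stress and signalling lists (number measured in brackets) with shRNA#4 against scramble (left, log2) and against shRNA#2 (right, log2), with called members in colour and the list median as a black bar. The ATF4 list has the most called rises against scramble, 25 of 34, while its median against shRNA#2 is 0.09.

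Of 24 measured transcription factors of the AP-1 and immediate early group, 7 were higher and 3 lower with shRNA#4 than with scramble, beside 15.7% of all genes higher and 10.4% lower. Against shRNA#2, 7 were higher and 0 lower, beside 8.63% and 6.64% of all genes. With shRNA#2 against scramble, 3 were higher and 5 lower, where 12.1% of all genes were higher and 9.54% lower. The list's median was 0.20 against scramble and 0.09 against shRNA#2, beside 0.004 and 0.009 over all genes. At an unadjusted p under 0.05 in limma, 2 members were lower than with shRNA#2. JUN, a core subunit of AP-1, stood at 0.63 and 0.81 with shRNA#4, 0.08 and -0.15 with scramble and -0.17 and -0.08 with shRNA#2. ATF3, a stress-induced partner of JUN and a target of ATF4, stood at 0.97 and 1.09 with shRNA#4, -0.20 and -0.10 with scramble and 0.01 and -0.01 with shRNA#2. In both genes the shRNA#4 arrays lay above the other 4 by a wide margin. JUN rose by 0.76 ± 0.0992 and ATF3 by 1.18 ± 0.0643 against scramble (limma adjusted p = 0.00312 and 0.000311), and they were higher than with shRNA#2 by 0.85 and 1.03 (limma adjusted p = 0.00508 and 0.00154).

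KLF6, a zinc finger factor induced by injury, stood at 0.44 and 0.42 with shRNA#4, 0.04 and -0.04 with scramble and -0.47 and -0.40 with shRNA#2. The hairpins thus moved KLF6 in opposite directions, by 0.43 ± 0.0536 and by -0.44. SRF, the factor that reads actin dynamics, rose by 0.66 against scramble and was higher than with shRNA#2 by 0.44. FOSL1 and FOSB, partners of JUN, stood at 0.34 and 0.27 against scramble, and their calls ended without either scramble array or replicate 2 of shRNA#4. FOSB was averaged over 2 probe sets, at 0.08 and 0.45 against scramble. SRF, FOSL1 and FOSB were named after their values were seen. The other large changes of the list were alike with both hairpins: MYC rose by 0.82 ± 0.0940, and FOSL2 and KLF10 fell by 0.91 ± 0.0626 and 0.93 ± 0.129, with differences between the hairpins of 0.01, 0.01 and -0.06. FOS and EGR1, the first genes of the group to respond to serum, stood at -0.01 and 0.22 and were not called.

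The promoters of JUN and ATF3 are shown because both genes rose with shRNA#4 and both carry the same 8 letters of a CRE-like site, the kind of sequence that JUN and ATF dimers are known to bind. The sequences are those of RefSeq on GRCh38.p14, from 250 bases before to 50 bases after the gene's start, 5′ to 3′ on the gene's strand, with matched motifs in capitals. The JUN window is chr1:58783998-58784297 on the minus strand, and the ATF3 window, 1 of 2 starts in the table, is chr1:212565157-212565456 on the plus strand.
JUN: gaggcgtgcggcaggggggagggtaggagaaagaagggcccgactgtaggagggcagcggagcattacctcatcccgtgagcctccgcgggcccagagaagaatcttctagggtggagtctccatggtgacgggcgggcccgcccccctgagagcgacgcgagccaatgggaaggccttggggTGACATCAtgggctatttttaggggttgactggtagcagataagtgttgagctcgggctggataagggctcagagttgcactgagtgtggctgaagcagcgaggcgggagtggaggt
ATF3: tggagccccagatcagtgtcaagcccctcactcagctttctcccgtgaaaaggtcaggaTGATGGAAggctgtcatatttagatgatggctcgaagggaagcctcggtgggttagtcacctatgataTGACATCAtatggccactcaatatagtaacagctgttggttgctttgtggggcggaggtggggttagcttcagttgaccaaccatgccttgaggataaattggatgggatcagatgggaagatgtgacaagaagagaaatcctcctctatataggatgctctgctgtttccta
The CRE-like site TGACNTCA, searched on both strands, begins 67 bases before the start of JUN and 123 bases before that of ATF3. ATF3 also holds TGATGGAA, a match to the amino acid response element core TGATGNAA that ATF4 dimers are known to bind, 191 bases before the start, and the sites do not overlap. PEA15, KLF6 and FRY carry TGACATCA as well. Among the other genes searched, the windows of PTGS2, EDN1, NCR3LG1, VGLL1, ANXA1, BAAT and CCL20 held no TGACNTCA. Nor did those of SRF, IGFL2, STXBP6, EMP2 and CAPN6. TAGLN, OLR1, HMOX1, FOSL1 and POMK had no window. The PTGS2 window and that of the other ATF3 start held no match to the motifs searched. Across the table, 7.72% of 35116 promoters held TGACNTCA, as did 6.04% of the promoters of the 330 genes that were higher and 4.07% of those of the 197 that were lower. The AP-1 site TGANTCA was in 7.71%, 4.99% and 4.47% of the same sets. Among promoters of all measured genes the shares were 6.85% and 6.32%. The response element core TGATGNAA was in 3.41% of the promoters of the genes that were higher, 2.03% of those that were lower and 2.46% of those of all measured genes. Some genes have several promoters in the table and others none: 279 of the 330, 158 of the 197 and 10749 of the 14884 measured genes had at least 1. With 72.2% of the measured genes covered, a comparison of these shares with that background is void, and a match is a description of the letters only.

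Of 34 measured genes of the integrated stress response, 25 were higher and 0 lower with shRNA#4 than with scramble in limma, and 0 were lower at an unadjusted p under 0.05 too, with a list median of 0.48, beside 15.7% of all genes higher and 10.4% lower. With shRNA#2 the counts were 20 and 0 against the same scramble arrays, beside 12.1% and 9.54% of all genes. ASNS, asparagine synthetase, stood at -0.02 and 0.18 with shRNA#4, -1.49 and -1.12 with scramble and 0.02 and 0.14 with shRNA#2. PSAT1, an enzyme of serine synthesis, stood at 0.08 and -0.08, against -1.47 and -1.03 with scramble and 0.18 and 0.17 with shRNA#2. For these biosynthetic genes the arrays of both hairpins overlapped or lay close together, well above scramble. The differences between the hairpins were -0.00 ± 0.134 for ASNS and -0.18 ± 0.141 for PSAT1. GARS1, a tRNA synthetase, rose by 1.09 with 0.05 between the hairpins, and ATF4 itself by 0.41 with 0.18 between them.

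Directly against shRNA#2, 6 of the 34 were higher and 3 lower, beside 8.63% and 6.64% of all genes. Without replicate 1 of shRNA#2 or replicate 2 of shRNA#4 the 6 became 1, ATF3, and the 3 became 0 without replicate 2 of shRNA#2 or replicate 1 of shRNA#4 and 1 without replicate 1 of shRNA#2. VLDLR, a lipoprotein receptor, rose by 1.46 ± 0.0904 against scramble and was higher than with shRNA#2 by 0.63, a call that ended without those same arrays. DDIT3, the stress factor CHOP, stood at 0.47 ± 0.0660 against scramble, called in each fit that left out an array, and 0.38 against shRNA#2, where the call ended in 3 of the 6. CTH, a transsulfuration enzyme, rose by 0.34 ± 0.0831 against scramble, a call that ended without either scramble array or replicate 2 of shRNA#4. CTH was lower than with shRNA#2 by 0.49, a call that ended without replicate 2 of shRNA#2 or replicate 1 of shRNA#4. WARS1 and NARS1, which charge tRNAs with tryptophan and asparagine, were higher than with shRNA#2 by 0.37 and 0.31. WARS1 was averaged over 2 probe sets that disagree, at 0.007 and 0.93 against scramble, so its value is uncertain. Against shRNA#2, the call of WARS1 ended without either shRNA#2 array or replicate 2 of shRNA#4, and that of NARS1 without any 1 of the hairpin arrays. DDIT3, WARS1 and NARS1 were named after their values were seen.

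A list of MAP kinase feedback inhibitors and output genes of the ERK pathway had 22 measured members, of which 12 rose and 2 fell, beside 15.7% of all genes higher and 10.4% lower. Against shRNA#2, 6 were higher and 5 lower, beside 8.63% and 6.64% of all genes. Without replicate 1 of shRNA#4 the 12 became 7, and they were 7 with quantile normalization. The 2 became 0 without either scramble array or either shRNA#2 array and 1 without either shRNA#4 array, and the 5 became 2 without replicate 2 of shRNA#2 and 3 without replicate 2 of shRNA#4. DUSP14, a MAP kinase phosphatase, stood at 0.72 and 0.81 with shRNA#4, -0.33 and -0.25 with scramble and -0.09 and 0.09 with shRNA#2, a rise of 1.06 ± 0.0759. DUSP1, a phosphatase induced by stress, stood at 0.46 and 0.71, against -0.05 and 0.05 with scramble and -0.37 and -0.16 with shRNA#2. Both phosphatase genes were thus highest with shRNA#4, although the DUSP1 call against scramble ended without replicate 1 of scramble. SPRY2, an inhibitor of receptor tyrosine kinase signalling, stood at -0.02 and 0.02 with shRNA#4, -0.34 and -0.62 with scramble and 0.98 and 1.09 with shRNA#2. It rose by 0.48 ± 0.0978 against scramble, a call that ended without either shRNA#4 array or with quantile normalization. Against shRNA#2 it was lower by 1.03 ± 0.0978. The adaptor ERRFI1 and the receptor EPHA2 rose by 0.91 ± 0.0848 and 1.04 ± 0.0806 against scramble, where shRNA#2 stood at 0.37 and 0.54. Among 8 measured EGF receptor ligands, EREG rose by 1.60 ± 0.193 and did not differ between the hairpins by more than the test allows to be called (0.36 ± 0.193).

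Of 33 measured NF-kappa-B and inflammatory genes, 4 were higher and 6 lower with shRNA#4 than with scramble, which is 30.3% called beside 26.1% of all genes. Against shRNA#2, 8 were higher and 1 lower, beside 8.63% and 6.64% of all genes, where the 8 became 5 without replicate 1 of shRNA#2 and the 1 became 0 without any 1 hairpin array. With shRNA#2 against scramble, 0 were higher and 9 lower in the limma fit, beside 12.1% and 9.54% of all genes. At an unadjusted p under 0.05 in limma, 2 were higher with shRNA#2. OLR1, a scavenger receptor for oxidised lipoprotein, stood at 1.41 and 1.24 with shRNA#4, -0.26 and 0.26 with scramble and -1.23 and -0.99 with shRNA#2. The 3 groups did not overlap, and the difference between the hairpins, 2.44 ± 0.176 (5.42-fold, limma adjusted p = 0.00211), was the largest rise over all 14884 genes. PTGS2 is a member of this list. CXCL16, a chemokine, stood at -0.01 and 0.01 with shRNA#4, 0.29 and 0.16 with scramble and -0.89 and -0.87 with shRNA#2, so its gap of 0.88 to shRNA#2 came from the other hairpin. Complement C3 and CFB fell against scramble by 1.99 ± 0.112 and 1.41 ± 0.0621, where shRNA#2 stood at -1.70 and -1.12. CXCL8 and TNF, typical NF-kappa-B targets, stood at -0.02 and 0.06 and were not called.

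Of 17 measured NRF2 and oxidative stress genes, 7 were higher and 1 lower with shRNA#4 than with scramble, beside 15.7% of all genes higher and 10.4% lower. Against shRNA#2, 5 were higher and 0 lower in limma, beside 8.63% and 6.64% of all genes, and 0 were lower at an unadjusted p under 0.05. Without replicate 1 of shRNA#2 or replicate 2 of shRNA#4 the 5 became 2. HMOX1, heme oxygenase, stood at 0.80 and 1.07 with shRNA#4, -0.16 and 0.16 with scramble and -0.54 and -0.38 with shRNA#2. Its rise was 0.94 ± 0.136 against scramble, and it was higher than with shRNA#2 by 1.40. TXNRD1, thioredoxin reductase, rose by 0.78 ± 0.0620, where shRNA#2 stood at 0.37 against scramble. Catalase (CAT) fell by 0.59 ± 0.0695 with 0.10 between the hairpins. SQSTM1, an autophagy receptor and NRF2 target listed with the lysosome, stood at 0.48 and 0.49 with shRNA#4, -0.05 and 0.05 with scramble and -0.24 and -0.11 with shRNA#2. Of 10 metallothionein and zinc genes, MT2A alone was called against scramble, at 0.58 ± 0.155, and this ended without replicate 1 of scramble or either shRNA#4 array.

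**Figure D4:**
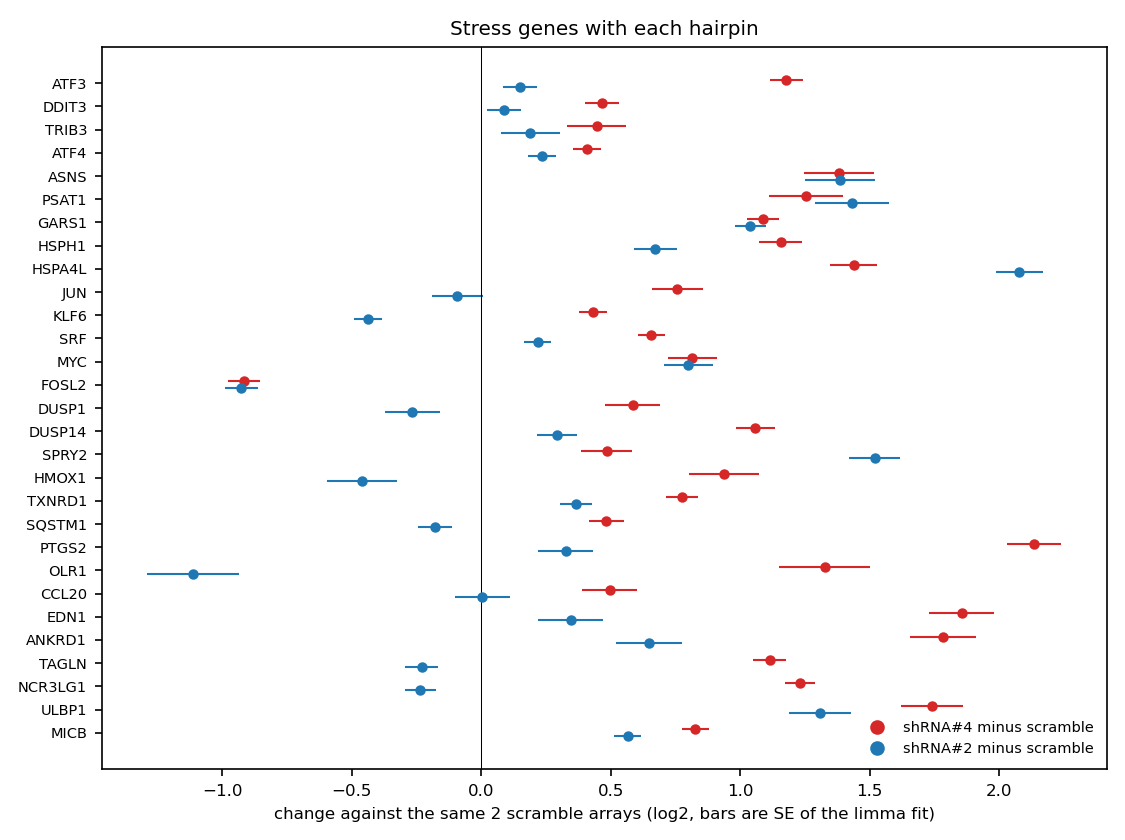
Change of 29 stress genes against the same 2 scramble arrays (x axis, log2, bars are the standard error of the limma fit) with shRNA#4 in red and shRNA#2 in blue. ASNS, PSAT1, GARS1, MYC and FOSL2 lie together for both hairpins, while ATF3, JUN, PTGS2, EDN1, TAGLN and NCR3LG1 are high with shRNA#4 and at 0.35 or below with shRNA#2.

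Of 24 measured YAP and TEAD genes, 7 were higher and 4 lower with shRNA#4 than with scramble, beside 15.7% of all genes higher and 10.4% lower, the 4 becoming 2 without replicate 1 of scramble or of shRNA#4. Against shRNA#2, 7 were higher and 0 lower in limma, beside 8.63% and 6.64% of all genes (2 lower at an unadjusted p under 0.05, and 2 called lower with quantile normalization), with a median of 0.21, and the 7 became 3 without replicate 1 of shRNA#2 and 4 without its replicate 2 or replicate 1 of shRNA#4. ANKRD1, a nuclear ankyrin repeat protein and common YAP readout, stood at 1.11 and 1.17 with shRNA#4, -0.73 and -0.57 with scramble and -0.19 and 0.19 with shRNA#2. It rose by 1.78 ± 0.127 against scramble and 1.14 against shRNA#2, so shRNA#2 lay between the other groups. CRIM1 rose by 0.78 ± 0.0599 and was higher than with shRNA#2 by 0.52. WWTR1, the YAP paralog TAZ, fell by 0.71 ± 0.0841, where shRNA#2 stood at -1.03 against scramble. CCN2, another common readout, stood at 0.24 and was not called against scramble. Of 19 measured SRF and actin genes, 7 were higher and 5 lower, the 7 becoming 4 without replicate 2 of shRNA#4, and the 5 becoming 2 without replicate 1 of shRNA#4 and 3 without its replicate 2 or replicate 1 of scramble. TAGLN had the largest rise of this list, whose median was -0.03, while LIMA1 and PDLIM5 stood at -0.59 ± 0.0585 and -0.40 ± 0.0673. Directly between the hairpins, 4 were higher and 4 lower with shRNA#4, beside 8.63% and 6.64% of all genes.

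Ligands by which stressed cells are seen by natural killer cells held 11 measured members. Of these, 6 rose and 0 fell with shRNA#4 against scramble in limma, beside 15.7% of all genes higher and 10.4% lower. At an unadjusted p under 0.05 in limma, 1 was lower. Here 5 members rose and 1 fell with shRNA#2, beside 12.1% and 9.54% of all genes. ULBP1, a ligand of the receptor NKG2D, stood at 0.25 and 0.62 with shRNA#4, -1.34 and -1.28 with scramble and 0.06 and -0.06 with shRNA#2. Its rise was 1.74 ± 0.121, and the difference between the hairpins, 0.43 ± 0.121, was not called (limma adjusted p = 0.0659). MICB and MICA rose by 0.83 ± 0.0529 and 0.60 ± 0.0657, and as genes of the HLA region with close relatives they are uncertain. NCR3LG1, the ligand B7-H6 of the receptor NKp30, differed from these, at 1.26 and 1.20 with shRNA#4, 0.00 and -0.00 with scramble and -0.17 and -0.30 with shRNA#2. Its rise was 1.23 ± 0.0593 against scramble and 1.47 against shRNA#2.

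Of 22 measured heat shock proteins and cochaperones 15 rose and 1 fell, beside 15.7% of all genes higher and 10.4% lower. The list's median was 0.38. The counts with shRNA#2 were 13 and 1, beside 12.1% and 9.54% of all genes. HSPH1, a nucleotide exchange factor of HSP70, rose by 1.16 ± 0.0834, where shRNA#2 stood at 0.67 against scramble. HSPA4L, of the same family, rose by 1.44 ± 0.0908 and was lower than with shRNA#2 by 0.64, a call that ended without either shRNA#2 array. The inducible HSP70 genes HSPA1A and HSPA1B rose by 0.67 ± 0.0968 and 0.68 ± 0.0888, and as near-identical copies they cannot be told apart. Over all genes, 8.63% were higher and 6.64% lower with shRNA#4 than with shRNA#2. Against shRNA#2, 5 were higher and 3 lower, and the 5 became 1 without either shRNA#2 array and 2 without either shRNA#4 array, while the 3 became 0 without replicate 1 of shRNA#2 and 1 without its replicate 2 or replicate 2 of shRNA#4.

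Of 24 measured genes of the unfolded protein response, 4 were higher and 7 lower with shRNA#4 than with scramble, which is 45.8% called beside 26.1% of all genes, with a median of -0.02. ATF6B, a membrane-bound sensor of the endoplasmic reticulum, stood at -0.65 and -0.49 with shRNA#4, -0.02 and 0.08 with scramble and 0.02 and 0.08 with shRNA#2. The kinase EIF2AK3 (PERK) rose by 0.71 ± 0.0497, where shRNA#2 stood at 0.49 against scramble. Of 23 hypoxia and glycolysis genes, 6 fell and 2 rose (34.8% called), with BNIP3L, a mitophagy receptor, at -0.48 and -0.55 with shRNA#4, 0.16 and 0.13 with scramble and 0.05 and -0.05 with shRNA#2. BNIP3 and NDRG1 fell by 1.28 ± 0.0726 and 1.60 ± 0.186, where shRNA#2 stood at -0.85 and -1.10 against scramble. Of 25 lysosome and autophagy genes, 10 fell and 5 rose (60.0% called), the 5 becoming 3 without either shRNA#4 array, with falls of CTSA (-1.17 ± 0.0942) and CTSB (-0.90 ± 0.0464). The counts of this list with shRNA#2 against scramble were 10 lower and 2 higher, beside 9.54% and 12.1% of all genes.

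Interferon response and RNA sensing genes were called in 4 of 35 measured members, 2 in each direction, which is 11.4% beside 26.1% of all genes. RIGI, a sensor of viral RNA, fell by 0.70 ± 0.0930. The kinase EIF2AK2 (PKR), which double-stranded RNA switches on, rose by 0.38 ± 0.0691 except with quantile normalization, where its call ended. With shRNA#2 the changes against scramble were -0.97 for RIGI and 0.58 for EIF2AK2, and neither gene was called between the hairpins. IFIT1 stood at -0.32 ± 0.156 and was not called. The 2 that were higher became 1 without replicate 2 of scramble or of shRNA#4 and 0 with quantile normalization, and the 2 that were lower became 1 without replicate 1 of scramble or of shRNA#4. Of 17 p53 targets, 5 were higher and 3 lower, beside 15.7% of all genes higher and 10.4% lower, and the 3 became 1 without replicate 1 of scramble. TIGAR, which lowers glycolytic flux, stood at 0.87 and 0.65 with shRNA#4, -0.13 and -0.31 with scramble and -0.01 and 0.01 with shRNA#2. PLK2 rose by 1.16 ± 0.0881 and TP53INP1 fell by 0.98 ± 0.0735, where shRNA#2 stood at 0.66 and -0.82 against scramble. Of 24 apoptosis regulators, 41.7% of which were called, 5 were higher, becoming 0 without replicate 1 of scramble or replicate 2 of shRNA#4 and 1 without replicate 2 of scramble or either shRNA#2 array, and 5 lower, becoming 2 without either shRNA#4 array and 3 without replicate 1 of scramble. BCL2L11, the pro-apoptotic protein BIM, fell by 1.08 ± 0.0676, and by 0.56 against shRNA#2.

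ANXA1, an anti-inflammatory annexin of healing epithelium, stood at 0.88 and 0.91 with shRNA#4, -0.31 and -0.15 with scramble and -0.13 and 0.13 with shRNA#2. BMP4, a signal of the gut mesenchyme and epithelium, stood at 0.55 and 0.76, against -0.11 and -0.00 with scramble and -0.25 and 0.00 with shRNA#2. MMP1, a collagenase, stood at -0.86 and -1.11 with shRNA#4, -0.06 and 0.06 with scramble and 0.37 and 0.74 with shRNA#2. ANXA1 and BMP4 were thus highest with shRNA#4 and MMP1 lowest. The wound list had 4 members higher and 5 lower of 24, beside 15.7% of all genes higher and 10.4% lower, the 5 becoming 3 without replicate 1 of shRNA#4. The TGF-beta and BMP list had 4 higher and 1 lower of 15 (33.3% called, beside 26.1% of all genes), the 4 becoming 2 without replicate 2 of scramble or replicate 1 of shRNA#4. The matrix list had 1 higher and 3 lower of 16, beside 15.7% and 10.4% of all genes, the 3 becoming 5 without replicate 2 of scramble.

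Enterocyte genes fell with shRNA#4 as with shRNA#2. Of 28 measured apolipoproteins and plasma proteins, 23 were lower and 1, C5, was higher, beside 10.4% of all genes lower and 15.7% higher. The list's median was -1.06. The counts with shRNA#2 were 21 lower and 1 higher, beside 9.54% and 12.1% of all genes. Directly between the hairpins the list had 5 higher and 5 lower with shRNA#4, beside 8.63% and 6.64% of all genes. MTTP, the transfer protein that lipidates apolipoprotein B, fell by 1.91 ± 0.0814, which was 0.65 further than with shRNA#2. Of 24 brush border and absorptive genes, 18 were lower and 0 higher, where shRNA#2 had 16 lower and 2 higher. LCT, intestinal lactase, stood at 0.10 and -0.10 with shRNA#4, 2.15 and 1.94 with scramble and -0.13 and -0.20 with shRNA#2. CDHR5, a protocadherin of microvilli, fell by 1.77 ± 0.0551. Of 17 goblet and mucus genes, 6 were lower and 0 higher, where shRNA#2 had 3 lower and 1 higher. Among them the trefoil peptide TFF1 stood at -1.04 and -1.27 with shRNA#4, 0.95 and 0.38 with scramble and -0.04 and 0.04 with shRNA#2, and its gap of 1.15 to shRNA#2 was not called without either shRNA#2 array or replicate 2 of shRNA#4. In the array medians of the plasma protein and brush border lists the 2 hairpins lay together and below scramble. Against shRNA#2 the 5 higher plasma protein genes became 3 without either shRNA#2 array or replicate 1 of shRNA#4 and 2 without its replicate 2, and the 5 lower became 3 without replicate 2 of shRNA#2.

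Of 4 miRNA genes of the intestinal epithelium 3 fell and 1 was not called, beside 10.4% of all genes lower. Their mature sequences are shown because a pair of them shares its seed. The letters are those of RefSeq on GRCh38.p14, all on the minus strand, with the seed, bases 2 to 8, in capitals. They lie at chr1:220117916-220117936, chr11:64891203-64891223 and chr1:220118206-220118227.
miR-215-5p: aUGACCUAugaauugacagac
miR-192-5p: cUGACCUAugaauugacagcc
miR-194-5p: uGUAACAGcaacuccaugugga
The first and second carry the same seed and are identical at 19 of 21 positions, while miR-194 has another. MIR215 and MIR194-1 are neighbours on chromosome 1. The precursor gene MIR215 stood at -0.17 and -0.24 with shRNA#4, 1.57 and 2.02 with scramble and -0.05 and 0.05 with shRNA#2, and MIR194-1 at -0.16 and -0.16, 1.73 and 1.88, and -0.09 and 0.09. Both fell, by 2.00 ± 0.139 and 1.97 ± 0.0812, and MIR192 by 1.55 ± 0.173, with no call between the hairpins. MIR194-2, the second locus of the same mature miR-194-5p, stood at -0.16 ± 0.0756 and was not called, although its hairpin lies 108 bases from that of MIR192. Mature miRNAs were not measured here, and these 4 genes were chosen after their values were seen.

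**Figure D5:**
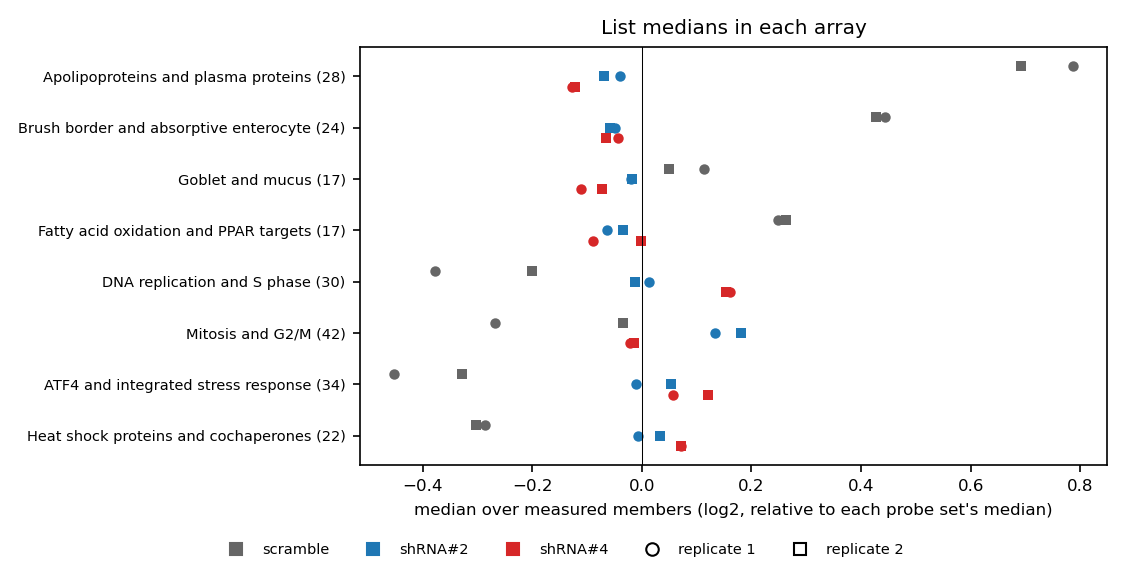
Median over the measured members of 8 lists (number in brackets) in each of the 6 arrays (x axis, log2 relative to each probe set's median), with colour for the group and shape for the replicate. Scramble stands above both hairpins in the plasma protein and brush border lists, and the mitosis list is higher with shRNA#2 (0.13 and 0.18) than with shRNA#4 (-0.02 and -0.01).

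Of 30 measured DNA replication and S phase genes 21 rose and 0 fell, beside 15.7% of all genes higher and 10.4% lower. Their median was 0.51, and MCM10, a loading factor of the replicative helicase, rose by 1.22 ± 0.106. With shRNA#2, 17 rose and 1 fell, beside 12.1% and 9.54% of all genes. Mitosis and G2/M genes rose in 13 of 42 and fell in 3, beside the same 15.7% and 10.4%, with a median of 0.15. The counts with shRNA#2 were 26 and 2, with a median of 0.38. Over all genes, 8.63% were higher and 6.64% lower with shRNA#4 than with shRNA#2. Directly between the hairpins, 0 of the 42 were higher and 12 lower with shRNA#4 in limma, with a median of -0.18, and 3 were higher at an unadjusted p under 0.05 (3 were called without either scramble array). The scramble arrays themselves stood at medians of -0.27 and -0.03 in this list. The 13 became 7 without replicate 1 of scramble, 6 without replicate 1 of shRNA#4 and 4 without its replicate 2, and the 12 became 2 without replicate 1 of shRNA#2 and 3 without any 1 of the other hairpin arrays. CDC25A, a phosphatase that drives cell cycle entry, rose by 0.55 ± 0.0879.

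Among markers of other cell types, 14 measured mesenchymal and fibroblast genes had 3 members higher and 1 lower with shRNA#4 than with scramble, which is 28.6% called beside 26.1% of all genes, and their array medians lay between -0.02 and 0.01 in all 6 arrays. The 3 were TAGLN, VIM (0.42 ± 0.0559) and SNAI1 (0.27 ± 0.0735), and the call of SNAI1 ended without either scramble array, either shRNA#2 array or replicate 2 of shRNA#4. The 1 that was lower became 0 without any 1 array. VIM was averaged over 3 probe sets, which ran from 0.104 to 0.945 against scramble. DCN, LUM, MGP and TWIST1 stood between 0.00 and 0.05 in size, and ZEB1 at -0.05, none of them called. Of 12 immune and endothelial markers 0 were higher and 4 lower in limma (33.3% called), and 1 was higher at an unadjusted p under 0.05. CD68, also on the lysosome list, fell by 2.14 ± 0.198 and LYZ by 1.03 ± 0.121, and the 4 became 2 without either shRNA#4 array. With shRNA#2 against scramble, 4 of the 12 were lower and 0 higher, beside 9.54% and 12.1% of all genes, and CD68 stood at -1.88. Of 20 enteroendocrine and neuronal markers, NRCAM alone was called (5.0% of the list), at 1.63 ± 0.106. What part these markers have in the differences above was not tested.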

How the data were processed

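The table the authors deposited holds log2 values of 6 Affymetrix arrays, 1 channel each, for 48144 probe sets. Biotin-labelled cDNA was made with a whole-transcript kit, per the labels' protocols. The log base is assumed to be 2, and no source used here gives the summarisation, background correction or between-array normalization. In the deposited values each probe set's median over the 6 arrays is 0, so levels, and with them a filter on dim probe sets, are absent, and dim and bright genes were treated alike. Symbols came from GEO's platform annotation: 16098 probe sets had 1 symbol, 0 several and 32046 none. Probe sets of a gene were averaged for 779 genes.

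limma 3.58.1 in R 4.3.3 fitted the 3 groups together (lmFit, eBayes without trend) with Benjamini-Hochberg adjustment over 14884 genes. The fit was tested on simulated data. Tables and plots were made with Python 3.11.15, pandas 2.3.3 and matplotlib 3.10.9.

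Genes were named by rule: the 15 largest called rises and falls against scramble with arrays that do not overlap, the 12 largest each way among genes called against both groups in which shRNA#2 moved by less than 0.25 of the change, up to 5 members of each list by size of change, and up to 3 members of each stress list called against both groups. Non-coding and uncharacterised symbols were skipped. ATF4, GARS1, FOS, EGR1, CXCL8, TNF, CCN2, EPCAM, KRT8, DCN, LUM, MGP, TWIST1 and ZEB1, and the genes so marked in the text, were named outside this rule after their values were seen. The members and lists were chosen with earlier results of these data known. Alternatives were another normalization, centring, variance prior, array weights, a replicate block, only the arrays compared, other treatment of probe sets, stricter thresholds and leaving out each array in turn. The number of arrays, 2 per group, limits the precision.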

Additional observations from a re-analysis of the deposited data

Results flagged for a closer look

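For 4 named genes the hairpins moved in opposite directions against the same scramble arrays, with both changes and the difference between the hairpins called in limma. OLR1 was higher with shRNA#4 than with shRNA#2 by 2.44, at 1.33 and -1.11 against scramble. NCR3LG1 was higher by 1.47, at 1.23 and -0.24. KLF6 was higher by 0.87, at 0.43 and -0.44. MMP1 differed by -1.54, at -0.99 and 0.56. Over all genes, 100 (0.672%) met the same condition.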

How the results depend on the processing

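Leaving out 1 array at a time, genes higher against scramble numbered 1621 to 2100 and lower 1030 to 1376, and against shRNA#2 438 to 1218 and 323 to 948. Genes called against both numbered 321 to 687 higher and 179 to 363 lower, and those with little change in shRNA#2 118 to 273 and 74 to 161. At an adjusted p under 0.01 in limma the same pairs were 1302 and 820, 439 and 330, 264 and 149, and 126 and 84. At 2-fold or more they were 114 and 165, 40 and 19, 17 and 8, and 12 and 6. Both thresholds are stricter by construction. Under the other settings run, the 8 counts stayed within 1.5 times, and no called value of a named gene changed sign under any setting. With the replicate number as a replicate block, 2535 genes were higher and 1692 lower against scramble, 1484 and 1153 against shRNA#2, 1009 and 555 against both, and 393 and 222 with little change in shRNA#2. That block kept 97.1% of the calls against scramble and 96.3% of those against shRNA#2. Deviations of same-numbered arrays correlated at 0.119 for scramble and shRNA#4, 0.179 for scramble and shRNA#2 and 0.199 for the hairpins. The labels do not say what the numbers share, so the arrays were not treated as pairs. A filter on dim probe sets was not run because the values hold no level.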

Other observations

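Of 34 measured crypt and Wnt target genes, 12 were higher and 2 lower with shRNA#4 than with scramble, beside 15.7% of all genes higher and 10.4% lower, with a list median of 0.08. With shRNA#2, 10 were higher and 2 lower than in the same scramble arrays, beside 12.1% and 9.54% of all genes. The 2 became 1 without replicate 2 of scramble or either shRNA#4 array. LGR5, a marker of intestinal stem cells, stood at 0.32 and 0.05 with shRNA#4, -1.54 and -1.01 with scramble and -0.05 and 0.23 with shRNA#2, so both hairpins lay above scramble. SP5 and ZNRF3, a transcription factor and a receptor ligase that Wnt signalling induces, rose by 1.31 ± 0.0523 and 1.05 ± 0.0608 and were higher than with shRNA#2 by 0.38 and 0.58. The secreted Wnt inhibitor DKK1 stood at 1.09 ± 0.284 against scramble, a call that ended without replicate 1 of scramble or either shRNA#4 array, and at 1.62 against shRNA#2, a call that ended without replicate 1 of shRNA#2 or either shRNA#4 array.

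Of 31 measured genes of epithelial junctions, 4 were higher and 6 lower with shRNA#4 than with scramble, which is 32.3% called beside 26.1% of all genes. CLDN1, a tight junction claudin, fell by 1.22 ± 0.0501 and PKP2, a desmosomal plakophilin, rose by 0.73 ± 0.0537. OCLN, the tight junction protein occludin, stood at 0.06 and -0.06 with shRNA#4, 0.22 and 0.17 with scramble and -1.25 and -1.39 with shRNA#2, so its gap of 1.32 between the hairpins lay in the shRNA#2 arrays. OCLN was named after its values were seen. Of 17 cholesterol synthesis genes, 7 were higher and 2 lower (52.9% called), led by SQLE, squalene epoxidase (0.72 ± 0.0978). The 7 became 4 without either shRNA#4 array, and the 2 became 1 without either scramble array or replicate 1 of shRNA#4.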
